A study of Mus with 21 samples.

Results

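The Hox cluster genes are the homeobox genes that lie in 4 clusters in the mouse genome. All rows of the deposited count table whose gene name consists of Hoxa, Hoxb, Hoxc or Hoxd followed by a paralog number were taken, which gave 39 protein-coding genes of the 55335 genes in the table. In GRCm38.p6 coordinates from RefSeq, the 11 Hoxa genes lie at chr6:52155367-52260880, the 10 Hoxb genes at chr11:96194316-96368254, the 9 Hoxc genes at chr15:102921131-103036856 and the 9 Hoxd genes at chr2:74668225-74765142. The libraries are poly(A) RNA from whole brains of 21 female mouse embryos at E17.5, on a C57BL/6J background. There were 5 WT embryos (Wapl +/+; Nipbl +/+), 7 embryos with 1 deleted copy of Wapl (Wapl+/delta, Nipbl +/+), 3 with 1 deleted copy of Nipbl (Wapl +/+, Nipbl+/delta) and 6 with 1 deleted copy of each (double heterozygotes). The Wapl deletion removed the promoter and the exons next to it, and was made with the E2a-Cre transgene and passed on through the germ line. The Nipbl deletion was made by the Stra8-icre transgene in germ cells of the sires, so the mutant Nipbl copy was paternal in every Nipbl+/delta embryo. Nipbl loads the cohesin ring onto chromatin and Wapl releases it, and the comparisons ask how the dosage of each, alone and together, is reflected in the Hox genes.

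Hox proteins are homeodomain transcription factors that give cells along the head-to-tail axis their position. Within each cluster the genes are switched on in the order in which they lie on the chromosome, so that low paralog numbers reach furthest forward, into the hindbrain, and high numbers begin further back, in the spinal cord and the tail. The forebrain and midbrain are known to lack Hox expression, and Hox RNA in a brain is usually traced to the hindbrain and any cord attached to it. Fewer cells of such a type and less Hox RNA per cell cannot be told apart in bulk RNA. Cohesin loops and Polycomb repression are both known to act on Hox clusters.

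Libraries held 25682566 to 35818767 counted read pairs. Normalized counts are counts scaled to a common library size by TMM factors. The targeted genes followed the labels: normalized Nipbl counts were 1956 to 2402 in the 12 libraries with 2 intact copies and 1104 to 1287 in the 9 with 1, and Wapl counts were 1320 to 1606 against 590.4 to 774.5. All 13 forebrain and all 12 midbrain and cerebellum markers were counted in the libraries, as a brain label requires. A single library stood apart for Hox genes, Nipbl+/delta replicate 1, and Hox values of Nipbl+/delta against WT are given with and without it. A separate set of 9 libraries held more than 20 counts of the mitochondrial gene mt-Nd3 and the other 12 held fewer. The set of 9 comprised 2 WT, 5 Wapl+/delta and 2 double heterozygous libraries and no Nipbl+/delta library. In the mutants of this set that carry the Wapl deletion, the labels write the deleted copy after the intact one.

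Of the 39 Hox genes, 17 averaged 10 normalized counts or more per library over the 21 libraries and are called measured here. Another 7 were sparse, with at least 10 normalized counts in sum but a lower mean, and 15 did not reach that sum and were not tested. Of the 15 untested genes 8 had no count in any library. All genes of paralog groups 2, 3, 4 and 5 were measured, 12 genes in all. Paralog group 6 had 2 measured genes of 3, group 7 had 1 of 2 and group 8 had 1 of 3. None of the 16 genes of groups 9 to 13 was measured, and 14 of them were not tested. Together these 16 genes drew 96 counts over all libraries, whereas the 3 genes of paralog group 3 drew 24358. By cluster, 6 of 11 Hoxa, 7 of 10 Hoxb, 2 of 9 Hoxc and 2 of 9 Hoxd genes were measured, and the low shares for Hoxc and Hoxd go with their many genes of high paralog number.

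The measured gene with the most counts in each cluster was Hoxa5, Hoxb3, Hoxc4 and Hoxd3. Counts were not corrected for transcript length, so levels are compared between libraries and not between genes. Hoxb3, which acts in the caudal hindbrain, had normalized counts of 448.3, 438.1, 408.4, 449.2 and 585.9 in the WT libraries. Hoxd3, its paralog in the Hoxd cluster, had 357.7, 290.4, 313.2, 310.4 and 418.9. For both genes replicate 5 was the highest WT library. Hoxc4, expressed at the border of hindbrain and cord, had 176.6, 193.9, 149.2, 145.5 and 264.9 in the same libraries. Hoxa5, known for its part in the motor neurons of the diaphragm, had 460.8, 449.4, 386.8, 420.1 and 613.8. WT replicate 5 was again the highest for each.

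Among the 7 sparse genes no library exceeded 32 counts. Hoxa7 ranged from 0 to 31 counts over the 21 libraries, Hoxc6 from 0 to 32 and Hoxd1 from 1 to 18. Hoxd8 did not exceed 8 counts, and Hoxb1, a gene of the early hindbrain, did not exceed 3. Hoxd13, best known from the limb and genital bud, had at most 5 counts, while Hoxd10, Hoxd11 and Hoxd12 beside it were at 0 in every library. A count of 0 in 1 library allows up to 3 counts, and this limit covers counting error only.

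**Figure D1:**
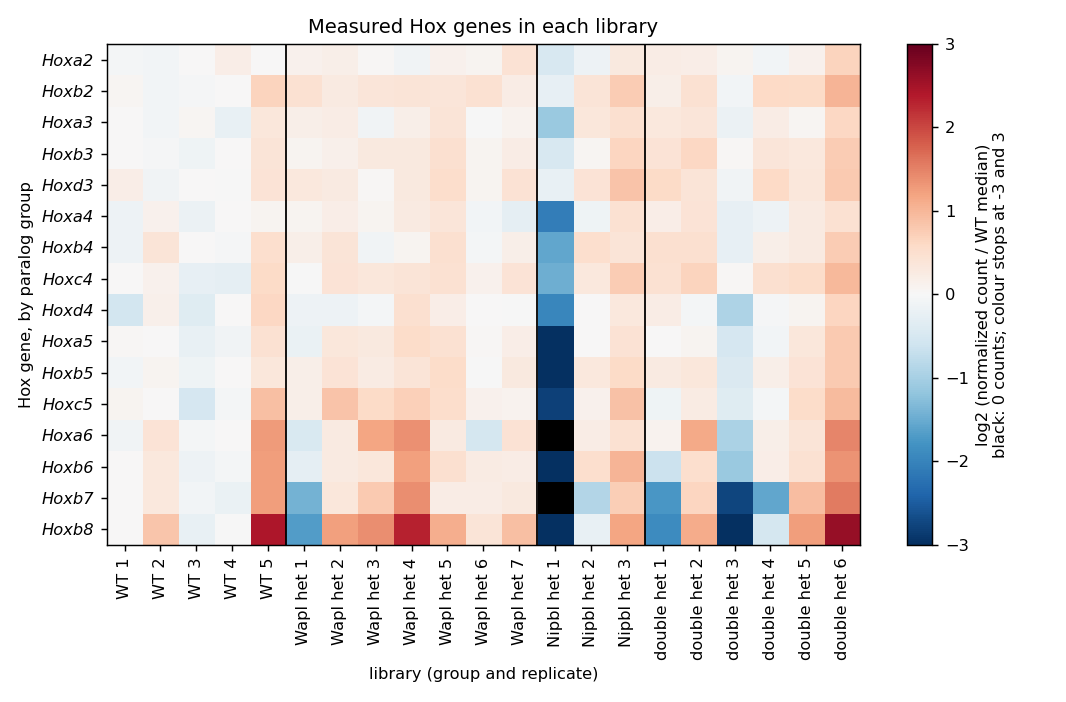
Log2 ratio of each library's normalized count to the WT median for 16 of the 17 measured Hox genes (rows, by paralog group) in the 21 libraries (columns, by genotype). Black cells have 0 counts. The column of Nipbl+/delta replicate 1 is pale for paralog groups 2 and 3 and dark blue or black from group 5 on.

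Nipbl+/delta replicate 1 held few or no reads of the Hox genes that begin furthest back. In this library 16 of the 17 measured Hox genes were lower than in each of the other 20 libraries, whereas 6.06% of all 20154 genes that average 10 or more were lowest in it. Of the 20154 genes, 20 were under 50% of the lowest other library in it, and 11 of these were Hox genes. In the other 20 libraries that mark was passed by 0 to 17 genes, none of them a Hox gene.

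The deficit deepened with the paralog number. As a percentage of the WT median, Hoxb2 stood at 84.4% in Nipbl+/delta replicate 1, with a 95% Poisson interval for its 56 counts of 63.7 to 110%. Hoxd3 stood at 85.7% (270 counts, 75.8 to 96.6%) and Hoxb3 at 71.2% (321 counts, 63.6 to 79.4%). These genes of groups 2 and 3 are those that reach furthest into the hindbrain, and Hoxa2, the foremost of all, was at 71.3% (56.1 to 89.2%). Hoxa3 was lower than its paralogs, at 46.6% (38.1 to 56.4%). In RefSeq the span of Hoxa3 holds Hoxa4, Hoxa5 and Hoxa6, that of Hoxb3 holds Hoxb4 and that of Hoxd3 holds Hoxd4. How reads in such overlaps were counted is not given in the sources used here, and their part in these values was not tested. The 4 genes of paralog group 4 stood at 23.8 to 36.0%, all lower than the genes of groups 2 and 3. In group 5, Hoxc5 was at 14.5% (10 counts, 6.93 to 26.6%), Hoxb5 at 7.73% (36 counts, 5.42 to 10.7%) and Hoxa5 at 3.32% (15 counts, 1.86 to 5.47%). Hoxb6 and Hoxb8, which mark the cord, had 1 count each, 1.37% of the WT median for Hoxb6 (0.0347 to 7.63%) and 1.22% for Hoxb8 (0.0308 to 6.79%). Hoxa6 and Hoxb7 had no count. Taken at the limit of 3 counts, Hoxa6 was at least 7.48-fold lower than the WT median and Hoxb7 at least 10.8-fold lower. The intervals cover counting error only and not the spread between embryos.

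**Figure D2:**
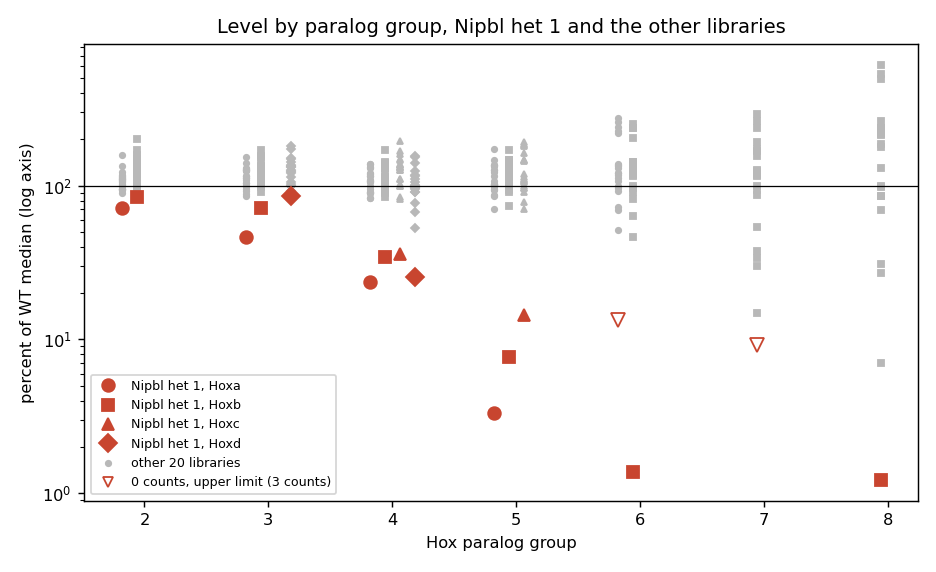
Normalized count as a percentage of the WT median (log axis) for 16 of the 17 measured Hox genes, by paralog group and cluster. Red marks are Nipbl+/delta replicate 1, open triangles its upper limits where it had 0 counts, and grey marks the other 20 libraries. The red marks run from 85.7% for Hoxd3 to 1.22% for Hoxb8, and the grey marks stay around 100% while fanning out from group 6 on.

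The same order held in each cluster that has genes to show it. In the Hoxa cluster the percentages were 71.3 for Hoxa2, 46.6 for Hoxa3, 23.8 for Hoxa4 and 3.32 for Hoxa5. In the Hoxb cluster they were 84.4 for Hoxb2, 71.2 for Hoxb3, 34.1 for Hoxb4, 7.73 for Hoxb5 and 1.37 for Hoxb6. Hoxc4 and Hoxc5 stood at 36.0 and 14.5, and Hoxd3 and Hoxd4 at 85.7 and 25.6. Hoxb5os, a noncoding RNA that overlaps Hoxb5 and Hoxb6, followed these neighbours with 7.95 normalized counts against 82.4 to 155 in the other 20 libraries. Hoxb3os, which overlaps Hoxb2 and Hoxb3, had 278 against 338 to 640.

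Sums over the measured genes show the same. The genes of paralog groups 1 to 3 summed to 828 normalized counts in Nipbl+/delta replicate 1 and to 1123 to 1962 in the other libraries. The genes of groups 4 and 5 summed to 205 against 1124 to 2492. Those of groups 6 to 8 summed to 1.99 against 55.6 to 838, which made 0.240% of the sum of groups 1 to 3 in this library against 4.93 to 52.2% elsewhere.

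Some marker genes of brain regions and other cell types were at an extreme in this library. Among all 20154 genes, 6.06% were lowest in it and 1159 genes were highest. By share, caudal and peripheral ganglia markers were lowest more often than all genes, and markers of forebrain, midbrain and cerebellum were highest more often. For peripheral ganglia this was 1 gene. Whether these shares differ beyond chance was not tested. Of 18 genes that mark neurons of the caudal hindbrain and spinal cord, 17 were found in the table by name. Of these 17, 3 were lower in Nipbl+/delta replicate 1 than in every other library, Slc6a5, Slc18a3 and Lbx1. Slc6a5, the glycine transporter of inhibitory neurons, had 450 normalized counts there against 626 to 1090, which is 54.5% of the median of the other 20. Mnx1, a motor neuron gene, was at 0 there, but it did not exceed 3.84 normalized counts anywhere. The summed level of the 17 genes was 109 CPM in this library, the 6th lowest of 21, and ranged over 101 to 123 CPM in WT, 109 to 121 in Wapl+/delta, 109 to 127 in Nipbl+/delta and 108 to 132 in double heterozygotes. The remaining listed gene, Drgx, is in the table under its older name Prrxl1 and is not part of these counts and sums. Prrxl1, a gene of dorsal sensory relay neurons, was chosen after its values were seen. It had 61.6 normalized counts in this library against 76.1 to 232 in the others. En1, En2 and Lmx1a, of the 12 markers of midbrain and cerebellum, and Bcl11b and Six3, of the 13 of forebrain, were higher in Nipbl+/delta replicate 1 than in every other library. The summed midbrain and cerebellum markers stood at 152 CPM there, the highest of the 21, against 113 to 128 in WT, 123 to 143 in Wapl+/delta and 118 to 149 in double heterozygotes. None of the 12 mesenchyme and meninges markers and none of the 6 muscle markers was outside the range of the other libraries, with Myog at 0 counts. Of the 7 markers of peripheral ganglia, Calca was the lowest of 21. The part that the makeup of the tissue has in the Hox deficit was not tested.

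The other 20 libraries also differed most in the genes of high paralog number. The coefficient of variation (CV, the SD as a percentage of the mean) was 14.5 to 20.9% for the genes of paralog groups 2 and 3, 16.4 to 30.0% for groups 4 and 5, 46.8% for Hoxa6, 42.2% for Hoxb6, 61.3% for Hoxb7 and 83.6% for Hoxb8. The median over the 20154 genes was 8.65% and the 90th percentile 25.8%. Hoxb8 varied more than all but 0.233% of these genes. Part of the spread of a low gene is counting error, and with that part taken out Hoxb8 kept a CV of 83.2%, Hoxb7 of 59.3% and Hoxa6 of 43.3%.

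**Figure D3:**
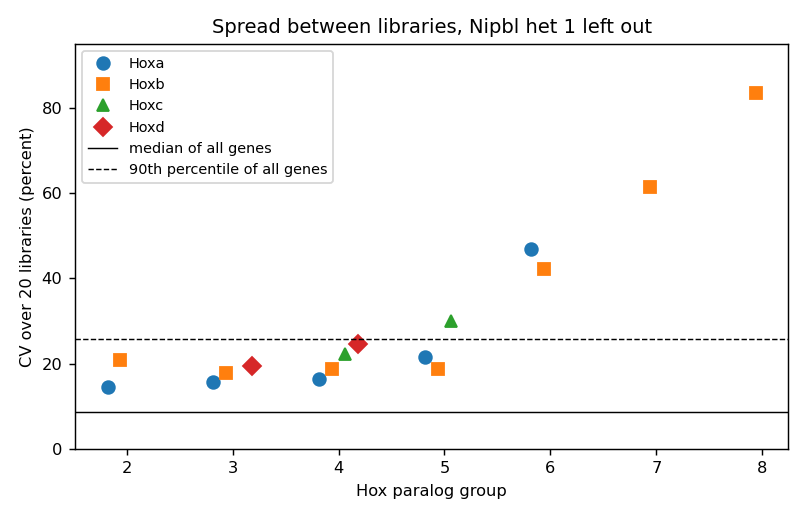
CV of the normalized counts over 20 libraries, without Nipbl+/delta replicate 1, against paralog group for 16 of the 17 measured Hox genes. Lines give the median (8.65%) and the 90th percentile (25.8%) of the 20154 genes with a mean of at least 10. The CV climbs from group 5 to 83.6% for Hoxb8.

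High and low libraries were the same for the genes of the Hoxb end. Hoxb8 had 69.7 to 435 normalized counts in WT with a median of 81.6, 25.4 to 403 in Wapl+/delta with a median of 174, and 5.75 to 498 in double heterozygotes with a median of 116. In Nipbl+/delta it had 0.994, 70.0 and 185. The genotypes overlapped over nearly the whole range. Double heterozygote replicate 6, WT replicate 5 and Wapl+/delta replicate 4 were the 3 highest libraries for Hoxb6, Hoxb7 and Hoxb8 alike. Nipbl+/delta replicate 1 and double heterozygote replicates 3 and 1 were the 3 lowest for each of these genes. Double heterozygote replicate 6 was the highest of the 21 libraries for 15 of the 17 measured Hox genes. The 3 highest libraries came from 3 genotypes and all belonged to the set with many mt-Nd3 reads, while the 3 lowest all carried the Nipbl deletion and belonged to the set with few. The sum of groups 6 to 8 was 201 to 838 in the 9 libraries with many mt-Nd3 reads and 1.99 to 419 in the 12 with few, with medians of 384 and 197, so this set moved with the posterior genes as well. Its part was not tested beyond the fits that carry it as a term.

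In the comparison of Nipbl+/delta with WT, which asks what a missing Nipbl copy does to Hox transcripts, no Hox gene was called. With 3 against 5 libraries and edgeR's quasi-likelihood test, 0 of the 24 tested members passed a Benjamini-Hochberg adjusted p below 0.1, the threshold for a call throughout, where 11.2% of all 30552 tested genes did. Hoxd8, a sparse gene, had an unadjusted p below 0.05 in this test, against 20% of all genes, and DESeq2 also called 0 members (11.5% of all genes), with none at an unadjusted p below 0.05. The median log2 fold change of the 17 measured genes was -0.160, with 5 above zero, beside -0.00684 over all genes with a mean of at least 10. Standard errors were wide. Hoxa5 had a log2 fold change of -0.39 with a standard error (SE) of 0.42, and Hoxb8 one of -0.94 with an SE of 0.637. Without replicate 1 the SEs were 0.129 for Hoxa5 and 0.535 for Hoxb8.

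Without Nipbl+/delta replicate 1 the picture turned, and 3 of 24 Hox genes were called, all higher, beside 2.2% of all genes called higher. This fit rests on 2 Nipbl+/delta libraries. Hoxd3 had 415.0 and 563.7 normalized counts in them, against 290.4 to 418.9 in WT, and rose by a log2 fold change of 0.53 (SE 0.12, adjusted p = 0.0171). Hoxb5, a gene of the caudal hindbrain and cord, had 577.3 and 683.5 against 420.2 to 588.9 and rose by 0.39 (SE 0.0998, adjusted p = 0.0338). Hoxa3, which also acts in the pharyngeal arches, had 283.8 and 312.6 against 192.1 to 281.9 and rose by 0.38 (SE 0.115, adjusted p = 0.078). Only for Hoxa3 did the 2 libraries lie clear of all 5 WT libraries, and by little. In the fit with all 3 libraries the same genes had log2 fold changes of 0.29 for Hoxd3 (adjusted p = 0.342), -0.16 for Hoxb5 (adjusted p = 0.881) and 0.02 for Hoxa3 (adjusted p = 0.969). The median over the measured genes went from -0.160 to 0.283, with 13 of 17 above zero, beside -0.00997 over all genes. Leaving out Nipbl+/delta replicate 3 had the opposite effect: Hoxb7 and Hoxd8 were called, both lower, beside 5.29% of all genes called lower, with log2 fold changes of -2.21 (adjusted p = 0.0273) and -4.89 (adjusted p = 0.0863). The calls thus depended on which of 3 embryos entered. Within the libraries with few mt-Nd3 reads, 3 Nipbl+/delta against 3 WT, 0 Hox genes were called. The share of all genes called in that fit is not given, so this 0 cannot be set against all genes.

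**Figure D4:**
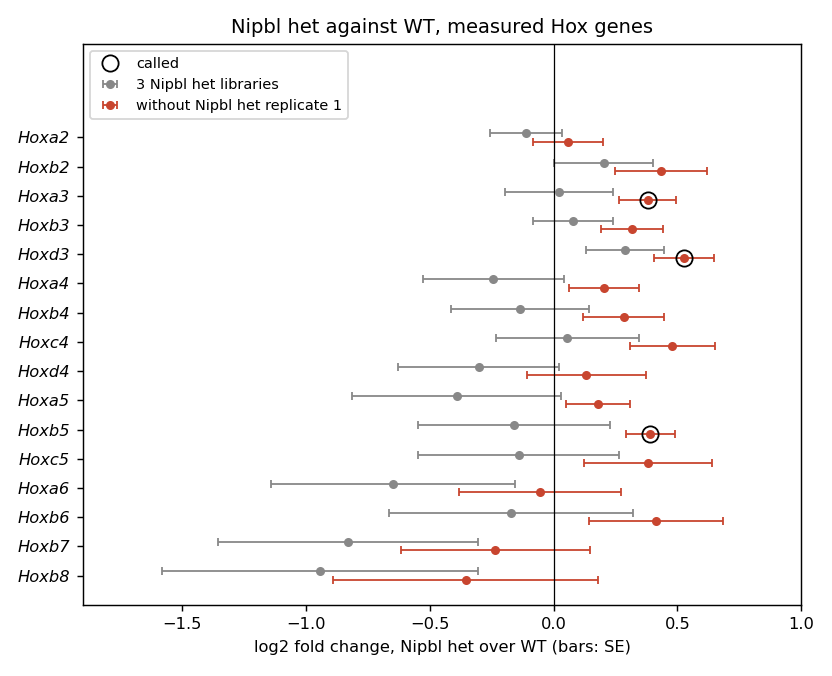
Log2 fold change of Nipbl+/delta over WT with its standard error for 16 of the 17 measured Hox genes, from all 3 Nipbl+/delta libraries (grey) and without replicate 1 (red). Rings mark calls at an adjusted p below 0.1. All red points lie to the right of the grey ones, and Hoxd3, Hoxb5 and Hoxa3 are called only in the red fit.

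For Wapl+/delta against WT (7 against 5 libraries) 1 of 24 Hox genes was called, where 2.22% of all tested genes were. It was Hoxb1, named here after its values were seen, with a log2 fold change of 2.75 (SE 0.783, adjusted p = 0.0995). Its counts were 0, 0, 1, 0 and 0 in WT and 1 to 3, with a median of 2, in Wapl+/delta. Summed, these are 1 read in 5 libraries and 14 in 7, a ratio per read sequenced of 10.4 with a 95% counting interval of 1.57 to 438. The call was kept when WT replicate 3 or Wapl+/delta replicate 2 was left out and lost without any other single library, and it was not made within either mt-Nd3 set. It was at 0 in all 3 Nipbl+/delta libraries and at 0 to 2 in double heterozygotes. No measured gene was called by edgeR, whereas DESeq2, which called 4.73% of all genes, called Hoxb5 (log2 fold change 0.25, adjusted p = 0.0871; edgeR adjusted p = 0.163) and not Hoxb1. All 17 measured genes had a log2 fold change above zero, with a median of 0.135 beside 0.0068 over all genes. These genes rise and fall together from library to library, so their number is not a number of independent observations. The largest of them by test were Hoxb5 and Hoxb3. Hoxb3 had 473.7 to 623.2 normalized counts in Wapl+/delta with a median of 519.1, against 408.4 to 585.9 in WT, and a log2 fold change of 0.18 (SE 0.0805, adjusted p = 0.294).

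In double heterozygotes against WT (6 against 5 libraries) Hoxb3 was called higher, as 1 of 24 tested members, beside 3.28% of all genes called and 0.812% called higher. Hoxb3 had 457.9 to 759.7 normalized counts in double heterozygotes with a median of 590.4, against the 408.4 to 585.9 of WT, and a log2 fold change of 0.39 (SE 0.104, adjusted p = 0.0607). The groups overlapped through WT replicate 5 and the lower double heterozygotes. Hoxc4 had a larger fold change of 0.49 and did not pass (SE 0.148, adjusted p = 0.11). It had 180.1 to 345.6 normalized counts with a median of 252.4, against 145.5 to 264.9 in WT. Hoxd3 did not pass either, with 0.35 (SE 0.119, adjusted p = 0.163) and 289.3 to 539.5 normalized counts against 290.4 to 418.9. Of the measured genes 14 had a log2 fold change above zero and the median was 0.202, beside 0.00513 over all genes. At the cord end, Hoxa6, Hoxb6, Hoxb7 and Hoxb8 had log2 fold changes of 0.17, -0.03, -0.10 and -0.03 with SEs of 0.328, 0.319, 0.486 and 0.627, which are wide enough to include the median. Whether they differed from the other genes was not tested.

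The call of Hoxb3 depended on the set of libraries. Within libraries with few mt-Nd3 reads its log2 fold change was 0.44 (adjusted p = 0.0363) and within those with many, 2 against 2, it was 0.37 (adjusted p = 0.814). Without double heterozygote replicate 3, the lowest of its group for Hoxb3, 4 Hox genes were called higher, Hoxb3, Hoxb5, Hoxc4 and Hoxd3, beside 1.63% of all genes. Without WT replicate 5, the highest of its group, 3 were called higher, Hoxb3, Hoxc4 and Hoxd3, beside 0.393% of all genes. Without any single one of the other WT libraries, or of double heterozygote replicates 1, 2, 4 and 6, no Hox gene was called. The shares of all genes called in those fits are not given. Without double heterozygote replicate 5 there were 3, again Hoxb3, Hoxc4 and Hoxd3, beside 3.37% of all genes called higher. Hoxb3os, the noncoding gene that overlaps Hoxb3, was also higher in double heterozygotes (log2 fold change 0.37, SE 0.108, adjusted p = 0.0885). Whether reads were counted by strand is not given in the sources used here, so reads of the pair cannot be told apart. Of the 17 measured Hox genes 14 overlap another gene in the RefSeq annotation.

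**Figure D5:**
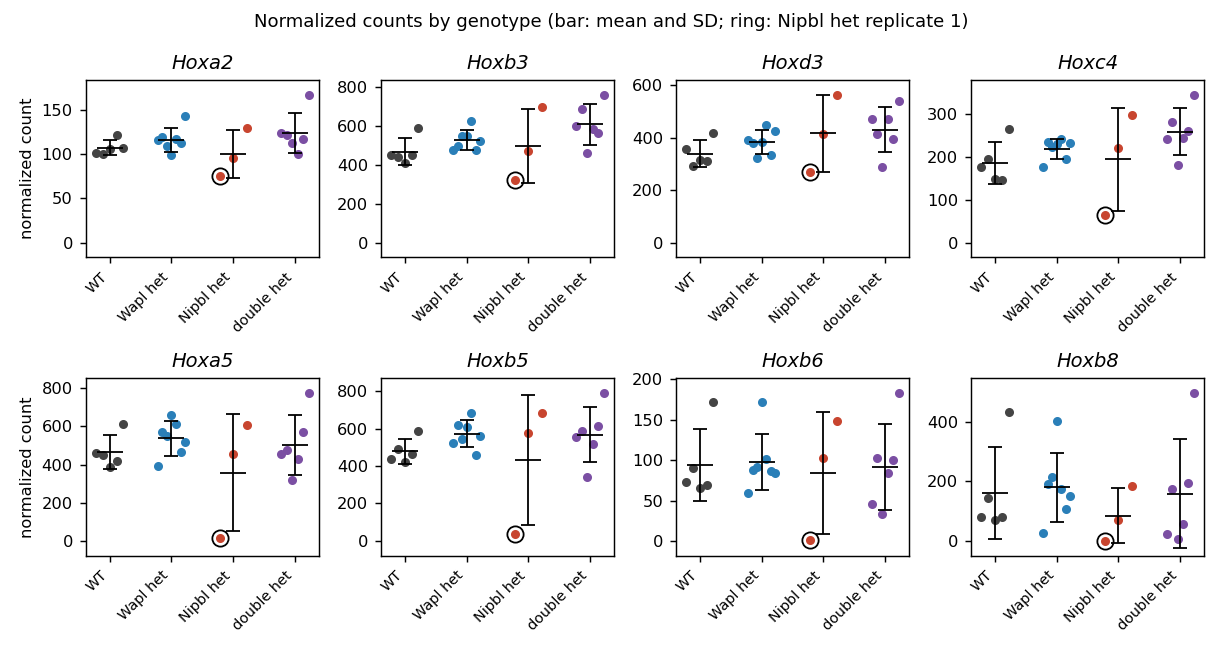
Normalized counts of 8 Hox genes in every library by genotype, with the mean and SD of each group as bars. The ring marks Nipbl+/delta replicate 1, which lies lowest for each gene and near 0 for Hoxa5, Hoxb5, Hoxb6 and Hoxb8. The genotypes overlap for all 8 genes.

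The comparisons between mutants called no Hox gene. Double heterozygotes against Nipbl+/delta, which asks whether losing a Wapl copy alters the Nipbl mutant, called 0 of 24, beside 0.00655% of all genes called, with 1 at an unadjusted p below 0.05 by edgeR, Hoxd1, beside 4.12%. DESeq2 called 0, beside 0.0164%. All 17 measured genes had a log2 fold change above zero in this comparison, with a median of 0.333, and without Nipbl+/delta replicate 1 only 6 had, with a median of -0.0712. Hoxb5 went from 0.40 (SE 0.44) to -0.15 (SE 0.192), and Hoxa5 from 0.50 (SE 0.482) to -0.07 (SE 0.223). Double heterozygotes against Wapl+/delta called 0 of 24 beside 1.02% of all genes, with 2 at an unadjusted p below 0.05 beside 9.94%, Hoxb3 (log2 fold change 0.22, SE 0.09) and Hoxc4 (0.25, SE 0.111). DESeq2 called 0, beside 2.05%. Nipbl+/delta against Wapl+/delta called 0 of 24 beside 1.16%, with 3 sparse genes, Hoxb1, Hoxd1 and Hoxd8, at an unadjusted p below 0.05 beside 10.3%. DESeq2 called 0, beside 2.12%.

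The interaction of both deletions, fitted on all 21 libraries, asks whether the double heterozygote departs from the sum of the single effects. None of the 24 Hox genes was called or reached an unadjusted p below 0.05 in edgeR, and DESeq2 also called 0. Over all genes edgeR called 0, with 13.8% at an unadjusted p below 0.05, and DESeq2 called 793, or 2.6%. For Hoxb3 the interaction on the log2 scale was 0.10 with an SE of 0.204, and for Hoxd3 it was -0.15 with an SE of 0.217. For Hoxb5 it was 0.12 (SE 0.441), and -0.42 (SE 0.218, adjusted p = 0.584) without Nipbl+/delta replicate 1. For Hoxb8 it was 0.71 with an SE of 1.07. The 3 comparisons with WT share the WT libraries, so their values for the members are given side by side and are not counted as repeats.

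Genes known to act with or on Hox genes were read from the same fits. Of 9 TALE homeodomain cofactors, the Pbx and Meis proteins with which Hox proteins bind DNA, 3 rose and 1 fell in Nipbl+/delta against WT, where 4.25% of all genes rose and 6.96% fell. Meis3 rose by a log2 fold change of 0.21 (SE 0.0366, adjusted p = 0.0017). Pbx2 rose by 0.18 (adjusted p = 0.0408) and, in Wapl+/delta, by 0.16 (adjusted p = 0.0878). Without Nipbl+/delta replicate 1, 1 of the 9 rose, Meis3 by 0.20 (adjusted p = 0.00938), 1 fell, and Pbx2 was not called. In double heterozygotes none of the 9 passed.

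Of 17 upstream regulators in hindbrain and cord, 14 were tested, and in Nipbl+/delta 2 fell and none rose. Over all genes 6.96% fell and 4.25% rose. Cyp26b1, which breaks down retinoic acid, fell by 0.19 (SE 0.0656, adjusted p = 0.0903). Without Nipbl+/delta replicate 1, 3 fell, Cyp26b1 by 0.29 (adjusted p = 0.00966) and Aldh1a2, which makes retinoic acid, by 0.35 (adjusted p = 0.0296) among them. Cyp26b1 also fell in double heterozygotes, by 0.25 (adjusted p = 0.0435), where Crabp2, a retinoic acid binding protein, rose by 0.27 (adjusted p = 0.0331). In double heterozygotes against Wapl+/delta, Cyp26b1 fell by 0.34 (adjusted p = 0.0281).

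Of 27 Polycomb genes 6 rose and 2 fell in Nipbl+/delta, beside 4.25% of all genes higher and 6.96% lower. Ezh2, the methyltransferase of Polycomb complex PRC2, rose by 0.30 (SE 0.0627, adjusted p = 0.00639), and Cbx2, a reader subunit, rose by 0.31 (SE 0.0691, adjusted p = 0.00863). Pcgf5 fell by 0.37 (adjusted p = 0.0222). In double heterozygotes Ezh2 and Cbx2 also rose, by 0.22 (adjusted p = 0.0496) and 0.24 (adjusted p = 0.0996), and Pcgf5 fell by 0.26 (adjusted p = 0.0729). Of 11 Trithorax genes, which oppose Polycomb, Kmt2b and Kdm6b rose in Nipbl+/delta, by 0.19 and 0.31, and Kmt2a fell by 0.34 in Wapl+/delta (adjusted p = 0.0575).

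Of 34 noncoding genes of the clusters 21 were in the table and 11 were tested. None passed in Nipbl+/delta or Wapl+/delta, and in double heterozygotes 1 did, Hoxb3os. Of 22 genes that flank the clusters 1 rose and 2 fell in Nipbl+/delta, beside 4.25% of all genes higher and 6.96% lower. Snx10, beyond the Hoxa cluster, fell by 0.24 (adjusted p = 0.0166), Jazf1 fell by 0.16 (adjusted p = 0.0547), and Calcoco1, beyond the Hoxc cluster, rose by 0.23 (adjusted p = 0.00128). Without Nipbl+/delta replicate 1 only the last of these was called. Among the caudal neuron markers, Gata3, Gata2, Lmx1b and Isl1 rose and Slc18a3 fell in Nipbl+/delta. Without replicate 1, Gata3, Gata2, Lmx1b and Lbx1 were called higher and none lower, and Isl1 and Slc18a3 were not called. Gata3 and Gata2 also rose in double heterozygotes, by 0.33 (adjusted p = 0.0213) and 0.31 (adjusted p = 0.0559). Of the 13 forebrain markers 8 rose and 1 fell in Nipbl+/delta, and of the 12 of midbrain and cerebellum 6 rose and none fell. Over all genes 4.25% rose and 6.96% fell in that fit. Without replicate 1 the marker counts were 4 higher and 1 lower for forebrain and 2 higher and 0 lower for midbrain and cerebellum. In this smaller fit 2.2% of all genes were called higher. The part of the marker genes in the Hox values was not tested.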

How the data were processed

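The authors sequenced oligo(dT)-purified RNA as paired-end reads of 101 bp, trimmed them with cutadapt 2.4, mapped them to mm10 (GRCm38.p6) with STAR 2.5.3a and counted them per gene with featureCounts of Subread 1.6.4. The deposited values are raw counts per gene. The strand setting and annotation release are not given in the sources used here, and 1 Nipbl+/delta library that the study set aside is not analysed here. Here, genes with at least 10 TMM-normalized counts summed over 21 libraries (30552) were tested with edgeR 4.0.16 (glmQLFit and glmQLFTest, R 4.3.3), each comparison on its own libraries, at an adjusted p below 0.1. DESeq2 1.42.0, the tool of the study, was an alternative, beside other scalings, filters, covariates and library subsets. The p-values cover the spread between single embryos. The SE of an edgeR fit is the absolute log2 fold change divided by the square root of the F statistic of its test. It is thus derived from the test and is not a separate estimate. In data simulated for Nipbl+/delta against WT the script recovered all 200 changed genes, with 18 false calls among 30552. The changes were planted in well-counted genes and were larger than most Hox changes given here. Every gene was simulated with the spread typical of its level, and many Hox genes vary more. The simulation thus checks the script and does not show the power for Hox genes. Coordinates were matched by symbol to RefSeq, with 39 of 39 found.

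Genes named with values are the measured members called in any comparison, the member with the most counts per cluster and members whose call changed under an alternative. Others are given as ranges. The members, gene lists and tests were chosen with earlier results of these data known. Of the gene lists, Drgx and Prac1 were not found in the table by those names. Drgx is there under its older name Prrxl1, which the list counts, the sums and the caudal marker level leave out. Same-numbered libraries did not all deviate together: correlations of deviations ran from -0.116 to 0.149 in comparisons with WT and from -0.194 to 0.34 between mutants, and in no comparison were all above 0.1, so the numbers were not taken as pairs. Results for a few genes are not reported here.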

Additional observations from a re-analysis of the deposited data

Results flagged for a closer look

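Among the 17 measured Hox genes in the WT, Wapl+/delta and double heterozygous groups, 8 values lay farther from the rest of their group than Dixon's test at the 95% level allows. Chance alone gives about 1 in 20 of the 51 groupings tested, and the genes are not independent of each other. WT replicate 5 gave 6 of the 8 and was the highest WT library each time, with normalized counts of 54.0 for Hoxa6 (nearest 29.8), 104 for Hoxb2 (nearest 69.0), 586 for Hoxb3 (nearest 449), 172 for Hoxb6 (nearest 90.3), 77.0 for Hoxb7 (nearest 40.0) and 435 for Hoxb8 (nearest 145). The others were Wapl+/delta replicate 4 for Hoxb6, at 172 against 101, and double heterozygote replicate 6 for Hoxa2, at 168 against 124. The Nipbl+/delta group, with 3 libraries, is too small for this test. What sets these libraries apart was not tested.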

How the results depend on the processing

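Counts of called Hox genes moved with the processing. Except where given above, the share of all genes called under each alternative is not given. The counts in this section can therefore not be set against all genes. For Nipbl+/delta against WT (0 called) they were 3 without a filter on low counts (1 higher, 2 lower) and 4 with the caudal marker level as a term (all lower), and leaving out single libraries gave 0 to 3. For Wapl+/delta against WT (1 called) the count was 0 with DESeq2 size factors in edgeR, the stricter filter, all 4 groups in one fit, the mt-Nd3 or caudal marker term, either mt-Nd3 set alone, libraries with the Wapl deletion written first, or a threshold of 0.05, and 0 to 1 when single libraries were left out. For double heterozygotes against WT (1 called) it was 2 with DESeq2 and with the mt-Nd3 term (all higher), 2 with the caudal marker term (the sparse genes Hoxb9 and Hoxc6, both lower, with Hoxb3 not called), 3 without a filter, 0 with all 4 groups in one fit, with libraries rich in mt-Nd3 or at 0.05, and 6 with the Wapl deletion written second (Hoxa4, Hoxa5, Hoxb3, Hoxb5, Hoxc4 and Hoxd3, all higher). Without single libraries it was 0 to 4. The fit with the deletion written second set only 2 double heterozygotes, replicates 5 and 6, against all 5 WT libraries. Both belong to the set with many mt-Nd3 reads. Replicate 6 was also the highest of the 21 libraries for 15 of the 17 measured Hox genes. The causes were not tested.

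With the shared replicate number as a block the count was 2 for Wapl+/delta (Hoxb3 and Hoxb5) and 3 for double heterozygotes (Hoxb3 and Hoxc4 higher, Hoxb8 lower). Since same-numbered libraries did not all deviate together, the block is given for completeness.

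These log2 fold changes changed sign. In Nipbl+/delta against WT, Hoxb5 ran from -0.63 to 0.39 when single libraries were left out (above zero without Nipbl+/delta replicate 1 alone), and Hoxa3 from -0.23 to 0.38 (below zero without WT replicate 4 or Nipbl+/delta replicates 2 or 3). With the caudal marker term Hoxd3 was -0.069 and Hoxa3 -0.42, and with the replicate block Hoxa3 was -0.025. In double heterozygotes against WT, Hoxa5 was -0.052 with the block, -0.29 with the caudal marker term, -0.039 in libraries with few mt-Nd3 reads and -0.15 with the deletion written first, and ran from -0.045 to 0.23 when single libraries were left out. Hoxb5 was -0.11 with the caudal marker term. Hoxb8 was 0.44 in libraries with many mt-Nd3 reads and 1.11 with the deletion written second, and ran from -0.83 to 0.75 when single libraries were left out. Among values of changed sign, Hoxb5 without Nipbl+/delta replicate 1 alone passed the threshold. The other 4 comparisons called 0 Hox genes under every alternative run. Depth limits the 7 sparse genes, whose libraries held at most 32 counts.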
